A study of Mus musculus with 16 samples.

Results

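The G1 cyclins, their kinases and p27 are 9 genes that act on the decision of a resting cell to enter the cell cycle: the D cyclins Ccnd1, Ccnd2 and Ccnd3, the E cyclins Ccne1 and Ccne2, the kinases Cdk2, Cdk4 and Cdk6, and Cdkn1b, which encodes the inhibitor p27. They were found by gene symbol, 1 row each among the 55421 gene rows of a mouse liver RNA-seq count table, and all 9 were among the 23018 genes with at least 10 counts in total that were tested. The 16 libraries came from livers of male mice and were divided by genotype, control or HIRA KO, and by time, with 4 libraries for each genotype taken ahead of liver regeneration and 4 following it. HIRA is a histone chaperone that deposits the variant H3.3 independently of DNA replication. All mice received an AAV8 vector at 6 months of age. In the control groups, wildtype mice had received either AAV8 Tbg-Cre or AAV8-Tbg-saCAS9 with a guide RNA against Rosa26. In the HIRA KO groups, HIRA fl/fl mice had received AAV8 Tbg-Cre, or wildtype mice the same Cas9 vector with a guide RNA against HIRA. Each group held 2 libraries of each deletion approach. The left lateral and median lobes were resected 4 weeks after injection and gave the tissue before regeneration, and the liver that remained was taken 5 days later. Lobe, way of collection and day therefore changed together and cannot be told apart from regeneration. The Tbg promoter acts in hepatocytes, so the other cells of the liver kept Hira.

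D cyclins are made when growth factors act on a cell, and they bind and activate the kinases encoded by Cdk4 and Cdk6. These kinases phosphorylate the retinoblastoma protein, which frees E2F factors to raise transcription of genes for DNA synthesis, Ccne1 and Ccne2 among them. E cyclins then activate Cdk2 at the start of DNA synthesis, and p27 binds both kinds of complex and holds Cdk2 inactive. Hepatocytes rest in the adult liver and enter the cycle together after part of the liver is removed, and induction of cyclin D1 is a known mark of that entry. Much of the control of p27 and of the kinases acts on the proteins, which RNA counts do not show.

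Total counts ran from 15103059 to 21738619 per library. Hira itself had 3.03 to 4.56 CPM (counts scaled to the library total with edgeR's TMM factors) in the 8 HIRA KO libraries and 4.99 to 6.29 in the 8 control libraries. The columns of the table carry the group and a running number from 1 to 4 that is in no label, so neither the mouse nor the deletion approach of a library is known. A mouse could give tissue both before and after regeneration, and which libraries share a mouse is not known. All tests of regeneration and of the interaction below treat the libraries as independent, though some may share a mouse. Per the study, the libraries of a group came from separate mice. On the second principal component, HIRA KO libraries 1 and 2 before regeneration and HIRA KO libraries 1 and 2 after it lay apart from the other 12 libraries. These 4 are named below as the libraries that lay apart, and results that rest on them are given with and without them. As each group held 2 libraries of each deletion approach, leaving out 2 of its libraries may leave out a whole approach, which cannot be told from the columns. In whole liver, fewer cells of a type and less RNA per cell cannot be told apart.

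Levels were first set side by side per transcript length, as the deposited FPKM. In control liver before regeneration Cdk4 had the highest level, 17.8 ± 1.47 FPKM (mean ± SD, n = 4 here and below), followed by Ccnd3 with 16.6 ± 1.5, Cdkn1b with 9.73 ± 1.10, Ccnd1 with 5.71 ± 1.20 and Cdk2 with 4.32 ± 0.293. Cdk6 had 1.93 ± 0.271, Ccnd2 1.61 ± 0.188, Ccne2 0.505 ± 0.130 and Ccne1 0.300 ± 0.160 FPKM. Libraries of neighbours in this order overlapped for Cdk4 and Ccnd3, for Ccnd1 and Cdk2, for Cdk6 and Ccnd2, and for Ccne2 and Ccne1, and did not overlap elsewhere. After regeneration Ccnd1 stood first in the order in both genotypes, with 29 ± 12.3 FPKM in control and 29.5 ± 10.7 in HIRA KO, though its libraries overlapped with those of Cdk4. Dividing CPM by the exon length of each gene in GENCODE M21 in place of FPKM put Ccnd3 in the fourth place in every group, below Ccnd1, Cdk4 and Cdkn1b. Its place thus depended on the unit, while Cdk2, Cdk6 and the E cyclins kept their order in control before regeneration.

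**Figure D1:**
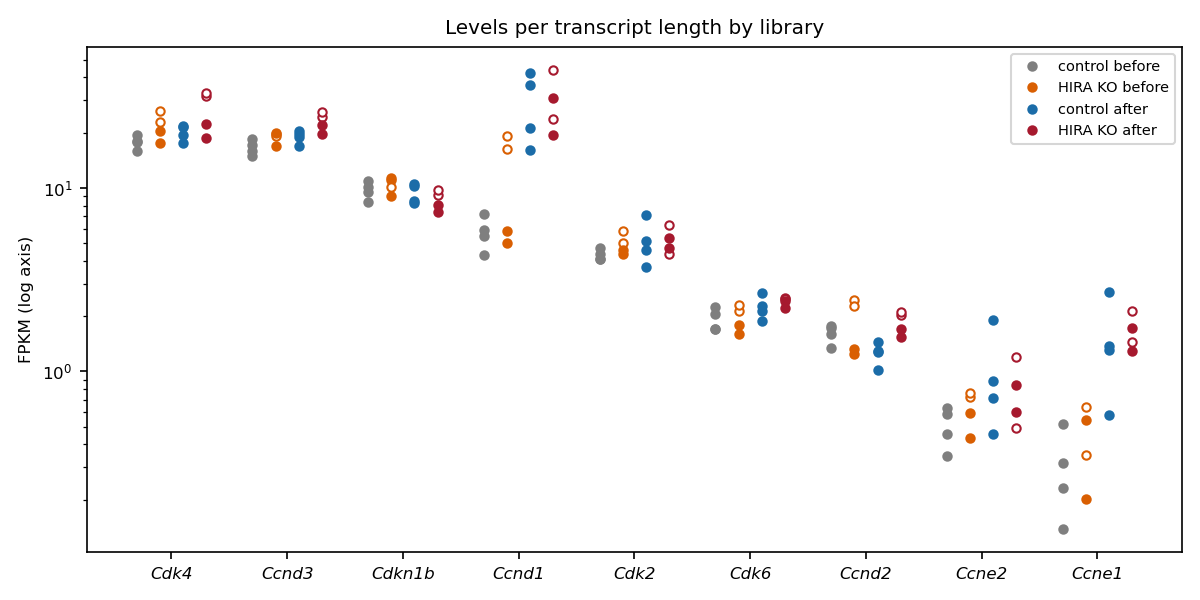
FPKM of the 9 genes on a log axis, 1 point per library, with 4 libraries per group and open points for the 4 HIRA KO libraries that lay apart. Ccnd1 spans from 4.31 to 43.9 FPKM and Ccne1 from 0.138 to 2.72, while the points of Cdkn1b stay between 7.35 and 11.3.

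Regeneration was the comparison in which any of these genes passed the test. In control, 2 of the 9 passed the threshold of adjusted p under 0.05 (edgeR's quasi-likelihood test, Benjamini-Hochberg adjusted over the 23018 genes), against 10.2% of all genes tested. Both were higher after regeneration, where 6.04% of all genes tested were called higher. They were Ccnd1 and Ccne1, a cyclin of each type. In HIRA KO, 2 of the 9 were called against 12% of all genes tested, both higher, against 6.48% called higher. They were Ccne1 and Cdk4. HIRA KO against control gave 0 of 9 calls before regeneration, where 0.0391% of all genes were called, and 0 of 9 after it, where 0.491% were. At an unadjusted p under 0.05, 1 of the 9 genes passed in each of these, Ccnd1 before and Cdk4 after regeneration, while 3031 and 3629 of the 23018 genes did, so the share among the 9 was near that over all genes. DESeq2 called 0 of 9 in both, and 382 and 910 of all genes. The median log2 fold change of the 9 genes was 0.09 for regeneration in control and 0.09 in HIRA KO, and 0.00 and 0.02 over all genes tested. For HIRA KO against control it was 0.11 before and 0.19 after regeneration, and 0.01 and 0.02 over all genes.

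Ccnd1 (ENSMUSG00000070348.5, chromosome 7, 144929931 to 144939925, minus strand, GRCm38) encodes cyclin D1. Control libraries 1 to 4 before regeneration had 23.7, 17.1, 20.9 and 15.4 CPM. Control libraries 1 to 4 after regeneration had 57.0, 69.6, 121 and 126 CPM. The same number before and after it is not known to mean the same mouse. Each of the later libraries exceeded each of the earlier ones, and the lowest and highest of them differed among themselves by more than the whole range before. In this comparison 4 of the 9 genes had groups that did not overlap (Ccnd1, Ccne1, Ccne2 and Cdk4), against 19% of all genes tested. The log2 fold change of Ccnd1 was 2.27 ± 0.43 (± SE), a 4.84-fold difference, with an edgeR adjusted p of 0.00529. It was called in all 8 other settings and in all 8 fits that left out 1 library.

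In HIRA KO before regeneration Ccnd1 stood at separate levels. The libraries that lay apart had 62.8 and 56.6 CPM, near the lower control libraries after regeneration. The other 2 had 17.5 and 21.3 CPM, within the range of control. Against control the log2 fold change was 1.04 ± 0.42 with an edgeR adjusted p of 0.329 over all 4 libraries, and 0.01 ± 0.37 without the libraries that lay apart. The difference thus rested on these 2 libraries. They were picked by a principal component of the same expression values, so part of their distance from the other libraries follows from that choice. They were also those with the highest summed levels of cholangiocyte and stellate cell markers among the 8 libraries before regeneration. The 6 cholangiocyte markers summed to 143 and 97.4 CPM in them and to between 47.8 and 73.7 CPM in the other 6, and the 7 stellate cell and fibroblast markers to 547 and 420 CPM against 196 to 233 CPM. They also had the highest sums of the 8 for the 6 hepatocyte markers (158896 and 141144 CPM), the 4 B cell markers (8.78 and 4.73 CPM) and the 5 T and NK cell markers (4.71 and 3.53 CPM). This did not hold for the other lists. Endothelial markers summed to 146 and 175 CPM in them, against 163 to 209 CPM in the other 6. Kupffer cell and macrophage markers summed to 239 and 228 CPM against 170 to 451 CPM. Neutrophil markers summed to 5.19 and 6.74 CPM against 1.00 to 5.77 CPM. All 6 cholangiocyte and all 7 stellate cell markers had positive log2 fold changes in HIRA KO before regeneration and 0 of them were called by edgeR. The part of these cells in the Ccnd1 level was not tested.

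After regeneration the HIRA KO libraries had 70.6, 134, 93.6 and 59.3 CPM of Ccnd1. These lay within or close to the range of control after regeneration, and the log2 fold change between the genotypes was -0.06 ± 0.41 with an edgeR adjusted p of 0.961. Against HIRA KO before regeneration, 3 of the 4 lay above all libraries and the fourth lay below the highest. The log2 fold change was 1.18 ± 0.42 with an edgeR adjusted p of 0.0862, so Ccnd1 was not called in HIRA KO. It was called with DESeq2 (adjusted p 0.0167), and 5 of 9 other settings called it. Without the libraries that lay apart the log2 fold change was 2.00 ± 0.43 with an edgeR adjusted p of 0.0205, and without HIRA KO library 1 before regeneration alone it was 1.51 ± 0.45 with an edgeR adjusted p of 0.0473. The test of the difference between genotypes gave -1.10 ± 0.59 with an edgeR adjusted p of 0.756, so the regeneration effect on Ccnd1 was not shown to differ between control and HIRA KO. On the opposite strand, LTO1 shares 1100 exon bases with Ccnd1. With regeneration it had log2 fold changes of 0.16 ± 0.13 in control and 0.37 ± 0.13 in HIRA KO, at a mean of 10.5 CPM, and was not called by edgeR (adjusted p 0.513 and 0.0704). The library kit keeps the strand, but whether the counting used it is not given in the sources used here.

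**Figure D2:**
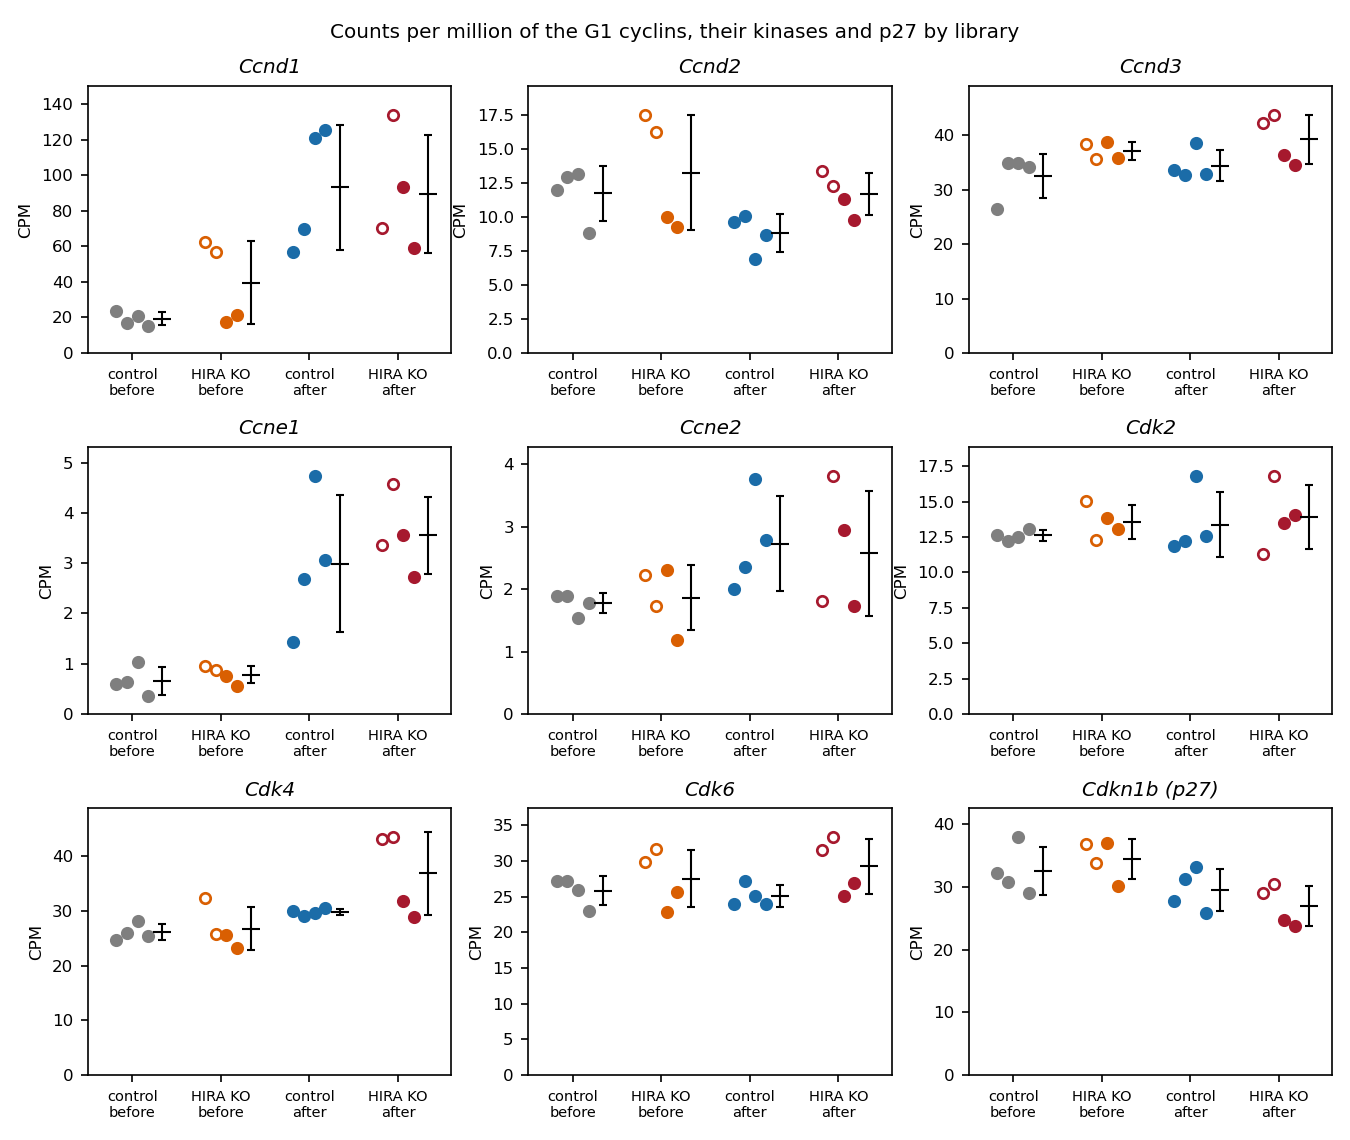
CPM of each of the 9 genes by library, in panels whose axes start at 0, with the mean ± SD of each group of 4 in black and open points for the HIRA KO libraries that lay apart. Ccnd1 and Ccne1 are higher after regeneration, the 2 open Ccnd1 points before regeneration sit at 62.8 and 56.6 CPM, and the open Cdk4 points after it at 43.2 and 43.6 CPM.

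Ccnd2 (ENSMUSG00000000184.12, chromosome 6, 127125162 to 127152193, minus strand) and Ccnd3 (ENSMUSG00000034165.16, chromosome 17, 47505051 to 47599691, plus strand) encode the other D cyclins, which bind the same kinases as cyclin D1. Neither passed the test in any of the 5 comparisons. Ccnd2 had 8.82 to 13.2 CPM in control before and 6.92 to 10.0 CPM in control after regeneration, a log2 fold change of -0.41 ± 0.20 (edgeR adjusted p 0.222) opposite in sign to that of Ccnd1. In HIRA KO it had 17.5, 16.3, 9.99 and 9.27 CPM before regeneration, where the first 2 were the libraries that lay apart, and 9.79 to 13.4 CPM after it. Between the genotypes Ccnd2 differed by 0.18 ± 0.20 before and 0.41 ± 0.20 after regeneration on the log2 scale, and by -0.28 ± 0.19 and 0.28 ± 0.18 without the libraries that lay apart.

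Ccnd3 stayed in a narrow range. Its libraries had 26.6 to 34.9 CPM in control and 35.7 to 38.7 CPM in HIRA KO before regeneration, and 32.7 to 38.7 and 34.6 to 43.8 CPM after it. Before regeneration all 4 HIRA KO libraries lay above all 4 control libraries, the 1 gene of the 9 for which the genotypes did not overlap, against 8.07% of all genes tested, and the log2 fold change was 0.19 ± 0.11 with an edgeR adjusted p of 0.475. After regeneration 0 of the 9 genes had genotypes that did not overlap, against 8.1% of all genes. The log2 fold change of Ccnd3 with regeneration was 0.08 ± 0.11 in both control and HIRA KO. Among the D cyclins, then, only Ccnd1 was called with regeneration, in control, and its share of their summed FPKM was higher after it. Ccnd1 made up 20.0% to 30.3% of the summed FPKM of the D cyclins in the control libraries before regeneration and 47.1% to 67.7% after it. In HIRA KO it made up 46.5% and 43.1% in the libraries that lay apart and 19.0% and 24.2% in the others before regeneration, and 47.3% to 61.1% after it. With exon length from the annotation these shares were higher, with group means between 45.0% and 78.8%, and the control libraries before and after regeneration again did not overlap. The sum of the D cyclins went from 23.9 ± 1.74 to 49.3 ± 13.2 FPKM in control and from 32.3 ± 8.42 to 54.4 ± 13.1 FPKM in HIRA KO. In HIRA KO before regeneration it was 41.2 and 37.6 FPKM in the libraries that lay apart and 26.3 and 24.0 FPKM in the others. Control libraries before regeneration had 21.6 to 25.6 FPKM.

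Ccne1 (ENSMUSG00000002068.16, chromosome 7, 38097984 to 38107534, minus strand) encodes cyclin E1 and was the gene of the 9 with a call in both genotypes. Control libraries had 0.597, 0.646, 1.03 and 0.355 CPM before regeneration and 1.44, 2.69, 4.74 and 3.07 CPM after it. HIRA KO libraries had 0.953, 0.867, 0.748 and 0.564 CPM before it and 3.35, 4.57, 3.56 and 2.73 CPM after it. Every library after regeneration lay above every library before it, in both genotypes, and the libraries that lay apart were within the range of the others at the same time. Ccne1 was the 1 gene of the 9 for which before and after did not overlap in HIRA KO, against 16.1% of all genes tested. The log2 fold change was 2.18 ± 0.35 in control and 2.17 ± 0.35 in HIRA KO, or 4.52-fold and 4.50-fold, with edgeR adjusted p of 0.00118 and 0.00089. Between 6 and 18 reads per library stood behind the values before regeneration and between 23 and 103 after it, so the level before regeneration was known less well than those of the other genes. Ccne1 was called in all 8 and all 9 other settings and in all fits without 1 library, but with limma on log2(FPKM + 1) the log2 fold change was 0.88 in each genotype, as the added 1 is larger than its FPKM before regeneration. The interaction was -0.01 ± 0.39 on the log2 scale.

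Ccne2 (ENSMUSG00000028212.16, chromosome 4, 11191351 to 11204779, plus strand), which encodes cyclin E2, was not called. It had 1.55 to 1.89 CPM in control before regeneration and 2.00 to 3.76 CPM after it, groups that did not overlap, with a log2 fold change of 0.62 ± 0.29 and an edgeR adjusted p of 0.201. In HIRA KO it had 1.19 to 2.31 CPM before and 1.73 to 3.82 CPM after regeneration, which overlapped, with 0.47 ± 0.29 and an edgeR adjusted p of 0.320. The reads of the E cyclins were also set against each other, as a description. Reads of Ccne1 were 0.200 to 0.667 times those of Ccne2 in control before regeneration and 0.719 to 1.26 times after it. In HIRA KO they were 0.324 to 0.500 times before and 1.20 to 1.85 times after it. This ratio moved mainly with Ccne1, so it is no separate result. Group means span 0.657 to 3.55 CPM for Ccne1 against 1.77 to 2.72 CPM for Ccne2. Ccne2 shares 609 exon bases on the opposite strand with Ints8, a gene with a mean of 16.3 CPM that fell by 0.38 on the log2 scale with regeneration in HIRA KO (edgeR adjusted p 0.0265). The direction of Ints8 there was opposite to that of Ccne2, whose own value is uncertain to the extent that strand was not used.

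**Figure D3:**
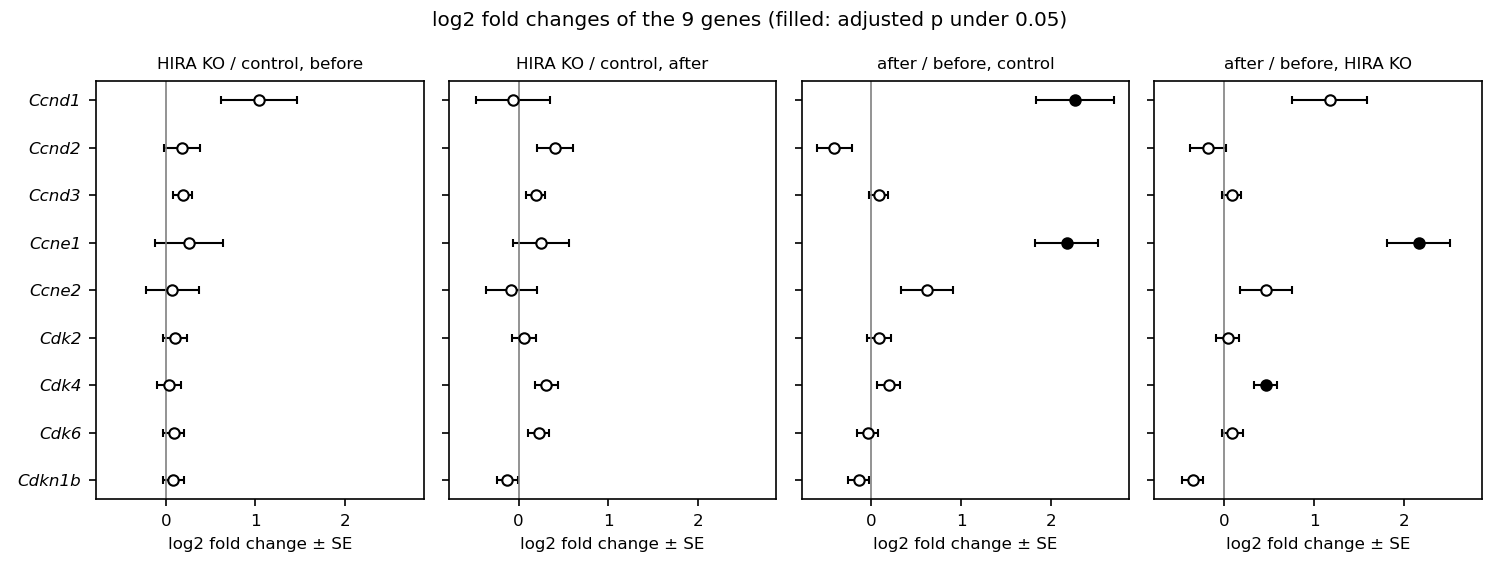
log2 fold change ± SE of the 9 genes in the 4 comparisons between groups, with filled points for genes called at an edgeR adjusted p under 0.05. The filled points are Ccnd1 and Ccne1 for regeneration in control and Ccne1 and Cdk4 for regeneration in HIRA KO.

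Among the kinases, Cdk4 (ENSMUSG00000006728.12, chromosome 10, 127063534 to 127067920, plus strand), a partner of the D cyclins, was called in HIRA KO. Its HIRA KO libraries had 32.4, 25.9, 25.6 and 23.2 CPM before regeneration and 43.2, 43.6, 31.8 and 28.9 CPM after it. The 2 highest libraries after regeneration were those that lay apart, and the other 2 overlapped with the libraries before it. The log2 fold change was 0.46 ± 0.13, or 1.38-fold, with an edgeR adjusted p of 0.0272. Without the libraries that lay apart it was 0.33 ± 0.12 and was not called (edgeR adjusted p 0.0878). The call was also lost when HIRA KO library 2, 3 or 4 before regeneration or library 1 or 2 after it was left out (edgeR adjusted p 0.0553 to 0.0897), in the fit of only these groups (0.104) and with limma on FPKM (0.40 and 0.398 with pseudocounts of 1 and 0.1). In control Cdk4 had 24.8 to 28.2 CPM before and 29.1 to 30.5 CPM after regeneration. These groups did not overlap, yet the log2 fold change of 0.19 ± 0.13 was not called (edgeR adjusted p 0.416), and the interaction was 0.27 ± 0.18 with an edgeR adjusted p of 0.807. HIRA KO against control after regeneration gave 0.31 ± 0.13 with an edgeR adjusted p of 0.253, and 0.05 ± 0.10 without the libraries that lay apart. Cdk4 shares 641 exon bases with Tspan31 on the opposite strand, which had a mean of 159 CPM. The log2 fold change of Tspan31 with regeneration was 0.06 ± 0.12 in control and -0.02 ± 0.12 in HIRA KO.

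Cdk6 (ENSMUSG00000040274.11, chromosome 5, 3341485 to 3531008, plus strand), the other partner of the D cyclins, had 23.0 to 27.3 CPM in control and 22.9 to 31.7 CPM in HIRA KO before regeneration. After it, it had 24.0 to 27.2 and 25.1 to 33.4 CPM. All groups overlapped, and the log2 fold changes ran from -0.04 ± 0.12 for regeneration in control to 0.22 ± 0.12 for HIRA KO against control after regeneration, with 0 calls in 5 comparisons. Per length Cdk4 was far above Cdk6, and made up 86.9% to 93.1% of the summed FPKM of both in the 16 libraries. With exon length from the annotation it was again above Cdk6, but by a smaller factor. Group means of CPM per kilobase were then 8.04 to 11.4 for Cdk4 and 1.79 to 2.09 for Cdk6.

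Cdk2 (ENSMUSG00000025358.16, chromosome 10, 128697939 to 128705031, minus strand), the partner of the E cyclins, had 12.2 to 13.1 CPM in control and 12.3 to 15.1 CPM in HIRA KO before regeneration, and 11.9 to 16.8 and 11.3 to 16.8 CPM after it. Its log2 fold changes were 0.09 ± 0.13 and 0.04 ± 0.13 with regeneration in control and HIRA KO, and 0.11 ± 0.13 and 0.06 ± 0.13 between the genotypes before and after it. The highest edgeR adjusted p of these 4 was 0.896 and the lowest 0.776.

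Promoter windows were read for the genes that RefSeq's table on GRCm38.p6 holds, to show where letters known for cell cycle factors stand. A window has 250 bases before and 50 bases after a start of transcription. It was found for 6 of the 9 genes: Ccnd3 (with 2 starts), Ccne1, Cdk2, Cdk4, Cdk6 and Cdkn1b. Both strands were searched for the E2F letters TTTCCCGC, TTTCGCGC, TTTGGCGC and TTTGCCGC, the cyclic AMP response letters TGACGTCA and the forkhead letters GTAAACA, which 2.26%, 1.79% and 3.65% of all 32851 windows held. None of these letter strings holds another. The window of Cdk2 held 1 E2F match, and the upstream window of Ccnd3 held 1 forkhead match, both on the strand opposite to the gene. The matching 30 bases are given from the strand of the gene, 5′ to 3′, with the match in capitals, at chr10:128705173-128705202 (minus strand) and chr17:47504801-47504830 (plus strand).
Cdk2: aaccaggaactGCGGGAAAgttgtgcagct
Ccnd3: ggtctacTGTTTACttcctgggcagcgttc
Neither gene was called in any comparison. The windows of Ccne1 and Cdk4, which were called, and those of Cdk6, Cdkn1b and the second start of Ccnd3 held none of these letters, which says only that these exact letters are not in these windows.

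Cdkn1b (ENSMUSG00000003031.14, chromosome 6, 134920401 to 134925513, plus strand) encodes p27 and had negative log2 fold changes with regeneration. Control libraries had 32.3, 30.8, 38.1 and 29.1 CPM before regeneration and 27.8, 31.3, 33.1 and 25.9 CPM after it, which overlapped, with a log2 fold change of -0.14 ± 0.12 and an edgeR adjusted p of 0.521. HIRA KO libraries had 36.9, 33.9, 37.1 and 30.1 CPM before it and 29.1, 30.4, 24.8 and 23.8 CPM after it. In HIRA KO 3 of the 4 libraries after regeneration lay below all before it, and the log2 fold change was -0.35 ± 0.12 with an edgeR adjusted p of 0.0574. It was called with DESeq2 (adjusted p 0.0365) and in 0 of the other 8 settings. The difference between the genotypes in this response was -0.21 ± 0.16 with an edgeR adjusted p of 0.841. HIRA KO against control gave 0.08 ± 0.12 before and -0.13 ± 0.12 after regeneration.

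Set against each other within a library, the reads of Ccnd1 were 0.528 to 0.734 times those of Cdkn1b in control before regeneration and 2.05 to 4.86 times after it. In HIRA KO they were 1.70 and 1.67 times in the libraries that lay apart and 0.472 and 0.707 times in the others before regeneration, and 2.43 to 4.41 times after it. The lowest of the 8 later libraries thus exceeded the highest of the 8 earlier ones. This ratio is of reads, not of levels per length, and it moved mainly with Ccnd1, whose group means span 19.3 to 93.3 CPM against 27 to 34.5 CPM for Cdkn1b.

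**Figure D4:**
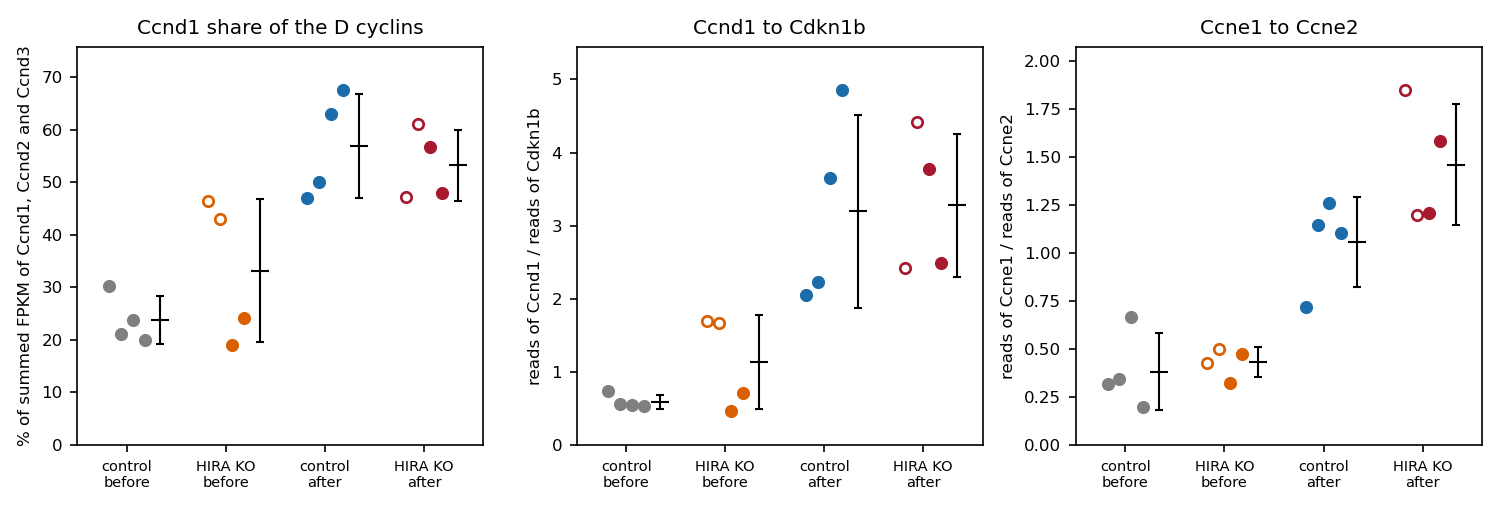
Ccnd1 as a percent of the summed FPKM of the D cyclins, reads of Ccnd1 per read of Cdkn1b, and reads of Ccne1 per read of Ccne2, by library and group, with mean ± SD in black and open points for the libraries that lay apart. In each panel the libraries of a genotype after regeneration lie above those of the same genotype before it, and the 2 open points before regeneration stand at 46.5% and 43.1% in the first panel.

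The interaction, which asks whether the HIRA KO effect changed with regeneration, gave 0 calls among the 9 genes and 0 of 23018 over all genes (0%) with edgeR. At an unadjusted p under 0.05 it gave 0 of the 9 and 1568 of all genes, and DESeq2 called 0 of the 9 and 67 of all genes.

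The other genes of the pathway were read from lists, by role. Of all genes tested, 10.2% were called with regeneration in control and 12% in HIRA KO, and 6.04% and 6.48% were called higher. Of the pocket proteins and E2F factors, 8 of 13 rose and 1 fell with regeneration in control, and 2 rose and 1 fell in HIRA KO. Rbl1, which encodes the pocket protein p107, rose by 1.81 ± 0.37 and 1.39 ± 0.37 on the log2 scale in control and HIRA KO (edgeR adjusted p 0.0052 and 0.0233). Rbl2, which encodes p130, the pocket protein of resting cells, fell by 0.49 and 0.56 (edgeR adjusted p 0.0101 and 0.00457). E2f2, an activator among the E2F factors, rose by 1.09 ± 0.28 and 0.90 ± 0.27 (edgeR adjusted p 0.0168 and 0.0403). E2f7, a repressor among them, rose by 1.34 ± 0.31 in control (edgeR adjusted p 0.0108) and had 0.86 ± 0.30 in HIRA KO (0.0725). Tfdp1, a partner of E2F factors in binding DNA, rose by 0.47 ± 0.11 in control (edgeR adjusted p 0.0131) and had 0.23 ± 0.11 in HIRA KO (0.203). Without the libraries that lay apart, 3 rose and 0 fell in HIRA KO.

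Of 17 genes of S phase under E2F, 13 rose and 1 fell in control and 11 rose in HIRA KO, 10 without the libraries that lay apart. The median log2 fold change of the list was 1.3 and 1.35. Mcm6 and Mcm2, subunits of the helicase that opens DNA for replication, rose by 3.03 ± 0.36 and 1.84 ± 0.32 in control and by 2.25 ± 0.35 and 1.85 ± 0.31 in HIRA KO (edgeR adjusted p 0.00208 or less). Cdc6, which loads this helicase, rose by 2.58 ± 0.47 in control and 1.96 ± 0.46 in HIRA KO (edgeR adjusted p 0.00247 and 0.0104), and Cdt1, which loads it too, by 1.3 ± 0.31 and 1.76 ± 0.32 (edgeR adjusted p 0.012 and 0.00225). Mcm10 went the other way, with 87.1 CPM in control before and 25.7 CPM after regeneration, and fell by 1.76 on the log2 scale (edgeR adjusted p 0.00312), against -0.98 ± 0.31 in HIRA KO (edgeR adjusted p 0.0535).

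Later cyclins and Cdk1, which act from S phase to mitosis, had the highest median log2 fold change of these lists, 4.83 in control and 3.47 in HIRA KO. With regeneration 4 of 5 rose in control and 4 of 5 in HIRA KO, 3 without the libraries that lay apart. Cdk1 went from 1.02 ± 0.388 to 29 ± 20.2 CPM in control and from 1.75 ± 1.10 to 20.9 ± 19.4 CPM in HIRA KO (log2 fold change 4.83 ± 0.82 and 3.55 ± 0.77, edgeR adjusted p 0.00306 and 0.0108). Ccna2, which encodes cyclin A2, rose by 4.58 ± 0.78 and 2.91 ± 0.72, and Ccnb2, a cyclin of mitosis, by 5.02 ± 1.00 and 3.47 ± 0.91 (edgeR adjusted p from 0.00301 to 0.0275). Among the genes that set the activating and inhibitory phosphorylation of the kinases, 4 of 8 rose in each genotype, and 1 without the libraries that lay apart in HIRA KO. They included the phosphatases Cdc25b, by 2.32 ± 0.35 and 1.46 ± 0.34, and Cdc25c, by 5.47 ± 1.20 and 3.63 ± 1.09, and the inhibitory kinase Pkmyt1, by 2.76 ± 0.39 and 1.59 ± 0.37, in control and HIRA KO (edgeR adjusted p from 0.000492 to 0.0455). After regeneration Cdc25c had 3.95 ± 2.72 CPM in control and 2.37 ± 3.01 CPM in HIRA KO (mean ± SD).

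Other CDK inhibitors rose rather than fell where they were called, 2 of 6 in control and 1 of 6 in HIRA KO. Cdkn2c, which encodes the Cdk4 and Cdk6 inhibitor p18, rose by 2.78 ± 0.34 and 1.94 ± 0.32 (edgeR adjusted p 0.000219 and 0.00163). Cdkn2d, which encodes p19, an inhibitor of the same kinases, rose by 1.26 ± 0.25 in control (edgeR adjusted p 0.00413) and had 0.75 ± 0.25 in HIRA KO (0.0605). Of 9 genes for the turnover of cyclins and p27, Cks2 and Cks1b rose by 0.80 ± 0.19 and 1.49 ± 0.36 in control (edgeR adjusted p 0.0123 and 0.0161) and had 0.59 ± 0.19 and 1.01 ± 0.36 in HIRA KO (0.05005 and 0.0841), the second being the cofactor with which Skp2 binds p27. In HIRA KO, Rnf123, a subunit of a ligase that degrades p27, fell by 0.52 (edgeR adjusted p 0.0146, against -0.23 ± 0.13 and 0.304 in control) and 0 rose, against 1 that rose and 1 that fell without the libraries that lay apart. Of 10 transcription factors that act on Ccnd1 or Cdkn1b, 1 rose and 2 fell in control, and 1 rose and 3 fell in HIRA KO. Foxm1, a factor of proliferating cells, rose by 4.74 ± 0.80 and 2.73 ± 0.73 (edgeR adjusted p 0.00286 and 0.0273). The forkhead factors that activate Cdkn1b were lower. Foxo3 fell by 0.80 and 0.76 and Foxo4 by 0.42 and 0.41 in control and HIRA KO (edgeR adjusted p from 0.00164 to 0.0187), and Foxo1 by 0.48 in HIRA KO (edgeR adjusted p 0.0225), with -0.41 ± 0.13 in control (0.0501). For HIRA KO against control before and after regeneration and for the interaction, 0 genes of these 7 lists were called by edgeR. Over all genes tested, 0.0391%, 0.491% and 0% were called. Without the libraries that lay apart 0 list genes were called too. Over all genes, HIRA KO against control then gave 5 of 21500 before and 15 of 21500 after regeneration.

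**Figure D5:**
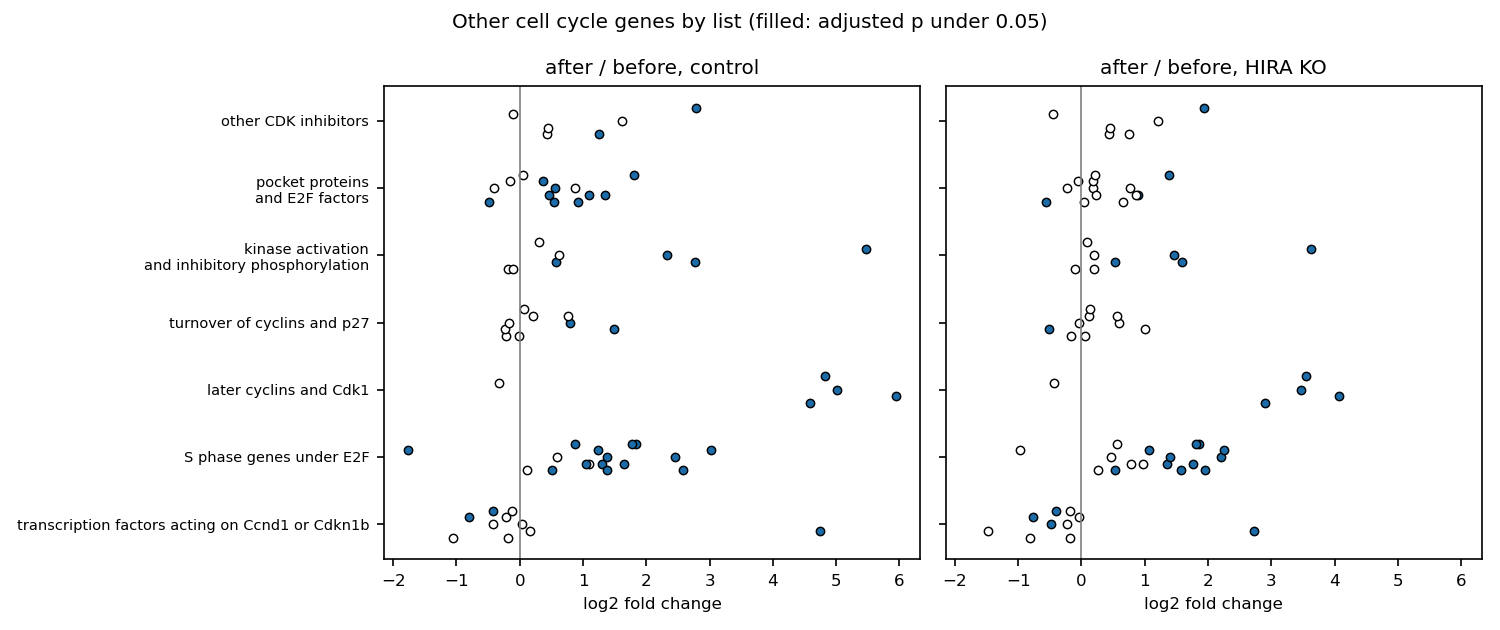
log2 fold change with regeneration for each gene of the 7 other cell cycle lists, in control and in HIRA KO, with filled points for genes called at an edgeR adjusted p under 0.05 (the vertical offset within a list has no meaning). The 4 called genes among the later cyclins and Cdk1 lie between 4.58 and 5.94 in control and between 2.91 and 4.07 in HIRA KO, and Mcm10 is the filled point at -1.76.

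The genes whose profile over the 16 libraries was most like that of a called member were found by the root mean square difference of centred log2(CPM + 1), among 13176 genes with a mean CPM of at least 1. For Ccnd1 these were Ajuba, Ttc39a and Lig1, at 0.344, 0.348 and 0.359 from a profile whose own root mean square was 1.05. For Ccne1 they were Dtl, Nsl1 and Ak7, at 0.212, 0.219 and 0.223 from one of 0.701. For Cdk4 they were Myl6, Arhgdia and Eif4a1, at 0.107, 0.111 and 0.112 from one of 0.242. Lig1 (DNA ligase 1) and Dtl have roles in DNA replication, while no role is given here for Ajuba, Ttc39a, Nsl1 and Ak7, so no shared theme is drawn. Myl6, Arhgdia and Eif4a1 are abundant genes of many cell types, with group means from 109.7 to 305 CPM. All were picked by their likeness to a called member, so that they moved with it follows from that choice.

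Markers of other cells also moved with regeneration, where 6.04% of all genes tested were called higher in control and 6.48% in HIRA KO. All 7 markers of Kupffer cells and macrophages rose in each genotype, and their sum went from 170 to 451 CPM over the control libraries and 228 to 270 CPM over the HIRA KO libraries before regeneration to 680 to 869 and 687 to 1031 CPM after it. Of the 6 hepatocyte markers, 1 was called lower in control and 2 in HIRA KO, and 1 of 6 had a positive log2 fold change in each genotype. Their mean of log2(CPM + 1) was 12.29 to 12.56 in the libraries before regeneration and 11.58 to 12.27 after it, which did not overlap. Their summed CPM, which rests mostly on the most abundant of them, lay between 98849 and 158896 in all 16 libraries. The cholangiocyte markers summed to between 47.8 and 143 CPM. The endothelial list had 1 of 5 called lower in each genotype, and 1 cholangiocyte and 1 B cell marker were called higher in control and 1 neutrophil marker in HIRA KO. The stellate cell list and the T and NK cell list had 0 calls by edgeR. The part of these cells in the change of Ccnd1, Ccne1 and Cdk4 was not tested.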

How the data were processed

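Poly-A RNA from 16 liver samples had been sequenced from stranded libraries. According to the study, the authors trimmed reads, aligned them to mm10 with STAR and counted them with HOMER; the submitters' processing notes list STAR, HTSeq and Cufflinks. The authors deposited whole-number read counts per gene and a table of FPKM (per transcript length and library size), whose tool is not given in the sources used here. Empty FPKM cells were read as 0. Total counts (15103059 to 21738619 per library) set the precision.

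Genes with at least 10 counts in total were fitted with edgeR (version 4.0.16, R version 4.3.3; TMM factors, robust quasi-likelihood test, 4 group means, all 16 libraries, no covariate), with Benjamini-Hochberg adjustment over 23018 genes and calls at an adjusted p under 0.05. The SE of a log2 fold change was approximated by dividing it by the root of its F statistic. DESeq2 (version 1.42.0), limma (version 3.58.1) on log2(FPKM + 1) and log2(FPKM + 0.1), other scaling and filters, and leaving out libraries were alternatives. The edgeR step was also run on simulated independent libraries. These held no deletion approach, shared mice or libraries that lie apart, so that run does not bear on these limits. The columns give no mouse or deletion approach, so neither entered a fit. Gene positions and exon lengths came from GENCODE M21, promoters from RefSeq (GRCm38.p6).

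The 9 genes and all lists were chosen with earlier results of these data known. From each list, up to 3 called genes per direction and comparison with the smallest p were named, and for each called member the 3 genes most like it.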

Additional observations from a re-analysis of the deposited data

Results flagged for a closer look

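In groups of 4 libraries, a library was picked out where its gap to the nearest other one was a larger part of the range of the group than Dixon's critical value. This was applied to 9 genes in 4 groups, 36 cases, of which chance picks out about 1 in 20. Ccnd3 had 26.6 CPM in control library 1 before regeneration, against 34.2 CPM in the next lowest, and 38.7 CPM in control library 3 after it, against 33.6 CPM in the next highest. Cdk2 had 16.8 CPM in control library 3 after regeneration, against 12.6 CPM in the next highest. That library also had the highest Ccne1 and Ccne2 of its group, at 4.74 and 3.76 CPM.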

How the results depend on the processing

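The calls of Ccnd1 and Ccne1 with regeneration in control and of Ccne1 in HIRA KO held in every setting run, and the counts of members called changed only for regeneration in HIRA KO. There the count of 2 became 4 with DESeq2 (Ccnd1 and Cdkn1b added), 3 with edgeR's filterByExpr (Ccnd1 added), 1 in the fit of only the groups compared (Cdk4 lost) and 1 to 3 without 1 library. Without the libraries that lay apart it was 2, as with limma on FPKM, with Ccnd1 in place of Cdk4. The main fit called 12% of all genes tested for regeneration in HIRA KO. Settings also differed in calls over all genes. For regeneration in control DESeq2 called 3274 of 23018 genes, against 2350 in the main fit. Of 819 values over single genes and settings, 748 kept sign and side of the threshold, 9 lost and 7 gained a call, and 55 changed sign, none of them called. The cause of these changes was not tested. The SE was not always larger with fewer libraries. For Ccnd1 in HIRA KO against control before regeneration it was 0.42 in the main fit and 0.37 without the libraries that lay apart. No paired analysis was possible because the columns carry neither the mouse nor the replicate numbers of the labels, and for the same reason the fit with the deletion approach was not run. The count of list genes without the libraries that lay apart was chosen after seeing the data. Low depth limits Ccne1 and Ccne2 most.

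Without the libraries that lay apart, the sign changed for HIRA KO against control before regeneration in Ccnd2 (-0.28), Ccne1 (-0.0075), Ccne2 (-0.026), Cdk4 (-0.096) and Cdk6 (-0.091), for regeneration in HIRA KO in Ccnd2 (0.15) and Ccnd3 (-0.055), and for the interaction in Ccnd3 (-0.13) and Ccne1 (0.097). With limma on log2(FPKM + 1) and log2(FPKM + 0.1) it changed for Ccnd1 between genotypes after regeneration (0.059 and 0.063), Cdk6 with regeneration in control (0.15 and 0.21) and Ccnd2 with regeneration in HIRA KO (0.035 and 0.068), and with the first for Ccne1 in the interaction (0.0028). With no filter on low counts the interaction of Ccne1 was 0.017. Leaving out 1 library gave ranges that crossed 0 for HIRA KO against control before regeneration in Ccne2 (-0.046 to 0.24) and Cdk4 (-0.066 to 0.10), after regeneration in Ccnd1 (-0.31 to 0.17), Ccne2 (-0.32 to 0.12) and Cdk2 (-0.030 to 0.20), for regeneration in control in Ccnd3 (-0.0070 to 0.12) and Cdk2 (-0.036 to 0.15), in HIRA KO in Cdk2 (-0.047 to 0.14), and for the interaction in Ccne1 (-0.28 to 0.32), Ccnd3 (-0.039 to 0.088), Cdk2 (-0.14 to 0.091) and Ccne2 (-0.39 to 0.051). By exon length in place of FPKM, Ccnd1 made up 45.0% and 78.8% of the D cyclins in control before and after regeneration and 55.8% and 75.7% in HIRA KO, against 23.8%, 57.0%, 33.2% and 53.2% by FPKM.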
